A study of Mus musculus with 6 samples.

Results

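ATF4 peaks located in LINE and DNA transposons were selected from 4 lists of annotated ChIP-seq peaks as the rows whose annotation began with intron or Intergenic and whose detailed annotation named a repeat of the LINE or DNA class. They numbered 1099 of 17462 peaks. The lists came from primary mouse embryonic fibroblasts (MEFs) of the 129S6/SvEvTac strain, either WT or GCN2-/- (GCN2 KO). Cells were kept for 24 h in complete DMEM (+Leu) or in DMEM without leucine (-Leu), and ATF4 was precipitated with the sc-200 antibody. Chromatin from 2 independent experiments, each with at least 5 replicates, went into a single pool and 1 library per condition. Differences between conditions therefore lack a replicate check, and no p-value is given. Intervals below are 95% Wilson intervals and cover counting error only. Read depth is not among the listed values and was not analysed here.

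LINEs are retrotransposons that move through an RNA copy. The L1 family includes the L1Md subfamilies, only some of which are still active in the mouse. It also includes the Lx, L1_Mus and L1VL subfamilies of the rodent lineage, and older L1M and HAL1 copies shared with other mammals. L2 and CR1 are ancient and long inactive. DNA transposons of the hAT-Charlie and TcMar-Tigger families moved by excision and insertion, and in the mouse only decayed copies remain. ATF4 is a bZIP transcription factor that is translated when GCN2 senses uncharged tRNA and phosphorylates eIF2alpha. With C/EBP partners it binds a composite element whose core is TGATGCAA, an ATF site joined to a C/EBP site.

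Sequences of member peaks with the composite motif or its relaxed form are shown first, since the motif results below turn on them. Each is given on the strand of the motif, with 16 bases either side, read from the mouse reference GRCm38.p6 (mm10), and capitals mark the composite core TGATGCAA. The first set holds the L2a, L1 and CR1 (L3) copies and the hAT-Charlie copies (MER20B, MER117) with the motif within 50 bp of the peak center and a score of 100 or more in the WT -Leu list.
Lsm14a (L2a), chr7:34390948-34390987, minus strand: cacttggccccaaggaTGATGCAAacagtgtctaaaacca
Frmd4a (L1MD3), chr2:4477525-4477564, minus strand: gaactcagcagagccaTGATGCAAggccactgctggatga
Psapl1 (Lx5), chr5:36257211-36257250, minus strand: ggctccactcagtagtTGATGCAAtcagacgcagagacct
Rfwd2 (Lx7), chr1:159153535-159153574, plus strand: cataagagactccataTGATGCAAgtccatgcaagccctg
Adpgk (Lx8), chr9:59278858-59278897, plus strand: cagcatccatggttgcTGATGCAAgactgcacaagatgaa
Scara5 (L3), chr14:65696226-65696265, minus strand: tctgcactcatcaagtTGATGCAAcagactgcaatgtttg
Zfr (MER20B), chr15:12101124-12101163, minus strand: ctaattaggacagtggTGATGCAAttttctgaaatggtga
Arid5a (MER117), chr1:36326153-36326192, plus strand: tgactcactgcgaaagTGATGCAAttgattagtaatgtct

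The second set holds copies of Tigger7 and of the related MER44B, both TcMar-Tigger elements, and is shown because the same stretch of the element surrounds the motif in most of them. These copies were picked after their values were seen. Capitals mark TGATGNAA, the composite core with its sixth base left free.
Tgif1 (Tigger7), chr17:70837054-70837093, minus strand: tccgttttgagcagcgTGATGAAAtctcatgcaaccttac
3110009F21Rik (Tigger7), chr12:110088014-110088053, minus strand: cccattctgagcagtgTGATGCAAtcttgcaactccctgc
Lonrf2 (Tigger7), chr1:38726657-38726696, plus strand: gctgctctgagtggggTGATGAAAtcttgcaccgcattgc
Pparg (Tigger7), chr6:115316032-115316071, minus strand: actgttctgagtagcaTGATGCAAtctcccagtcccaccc
Rbpj (Tigger7), chr5:53537339-53537378, plus strand: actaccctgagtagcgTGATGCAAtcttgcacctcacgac
Sh3kbp1 (MER44B), chrX:159731568-159731607, plus strand: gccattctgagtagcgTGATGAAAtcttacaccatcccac
Nos1 (Tigger7), chr5:117726658-117726697, plus strand: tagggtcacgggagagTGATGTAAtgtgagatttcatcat

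The third set holds the RCHARR1 copies (hAT-Charlie) with TGATGCAA anywhere in the peak, also picked after their values were seen.
Eif3a (RCHARR1), chr19:60795502-60795541, minus strand: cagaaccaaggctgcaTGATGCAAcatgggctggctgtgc
Mitf (RCHARR1), chr6:97871469-97871508, plus strand: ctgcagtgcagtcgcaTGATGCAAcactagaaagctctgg
Rps6kc1 (RCHARR1), chr1:190638597-190638636, minus strand: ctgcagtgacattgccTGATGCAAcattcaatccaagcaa

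To see how much of each binding map lay in these elements, the members were counted per list. In the WT lists, LINE and DNA transposon peaks were 315 of 4850 with leucine (6.49%, interval 5.84 to 7.22) and 429 of 6374 without (6.73%, 6.14 to 7.37). The GCN2 KO lists held 198 of 3566 with leucine (5.55%, 4.85 to 6.35) and 157 of 2672 without (5.88%, 5.05 to 6.83). The 4 intervals overlapped, which does not by itself show that the shares are equal, and no test between conditions was run. In WT the LINE peaks numbered 291 with and 389 without leucine, and in GCN2 KO 182 with and 148 without. DNA transposon peaks numbered 24 and 40 in WT, and 16 and 9 in GCN2 KO.

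The number of member peaks was higher without leucine in WT cells and lower without leucine in GCN2 KO cells. The ratio of -Leu to +Leu peaks was 1.36 (1.18 to 1.57) in WT, beside 1.31 (1.26 to 1.36) for all other peaks of the same lists. In GCN2 KO it was 0.793 (0.643 to 0.977), beside 0.747 (0.709 to 0.786) for all other peaks. In both genotypes the ratio of the members thus overlapped that of the remaining peaks. LINE peaks gave ratios of 1.34 (1.15 to 1.56) in WT and 0.813 (0.655 to 1.01) in GCN2 KO. DNA transposon peaks gave 1.67 (1.01 to 2.75) in WT and 0.562 (0.254 to 1.25) in GCN2 KO. At a score of 30 or more the ratio of the members was 1.33 in WT and 0.963 in GCN2 KO. With every list cut to its top 2672 peaks, the length of the shortest, which makes the list totals equal, the WT ratio was 0.8.

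L1 was the dominant family in every list. It held 266 of 315 members with leucine and 348 of 429 without in WT, and 159 of 198 with leucine and 139 of 157 without in GCN2 KO. L2, a much older LINE, followed with 24, 34, 20 and 9 peaks in the same order of lists. CR1 gave 1, 5, 3 and 0 peaks, and RTE-BovB and RTE-X gave 1 peak each, both in WT -Leu. Among DNA transposons, hAT-Charlie gave 16, 17, 10 and 4 peaks and TcMar-Tigger gave 4, 18, 3 and 3. TcMar-Tigger was thus the family with the largest -Leu to +Leu ratio in WT among families with 10 or more WT peaks, at 4.5 (1.6 to 12.7), whereas the ratio of hAT-Charlie was 1.06 (0.544 to 2.08). The remaining DNA families were hAT-Tip100 with 7 peaks over the 4 lists, hAT-Blackjack with 3, and hAT, MuDR, TcMar-Tc2 and an uncertain TcMar class with 1 each.

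**Figure D1:**
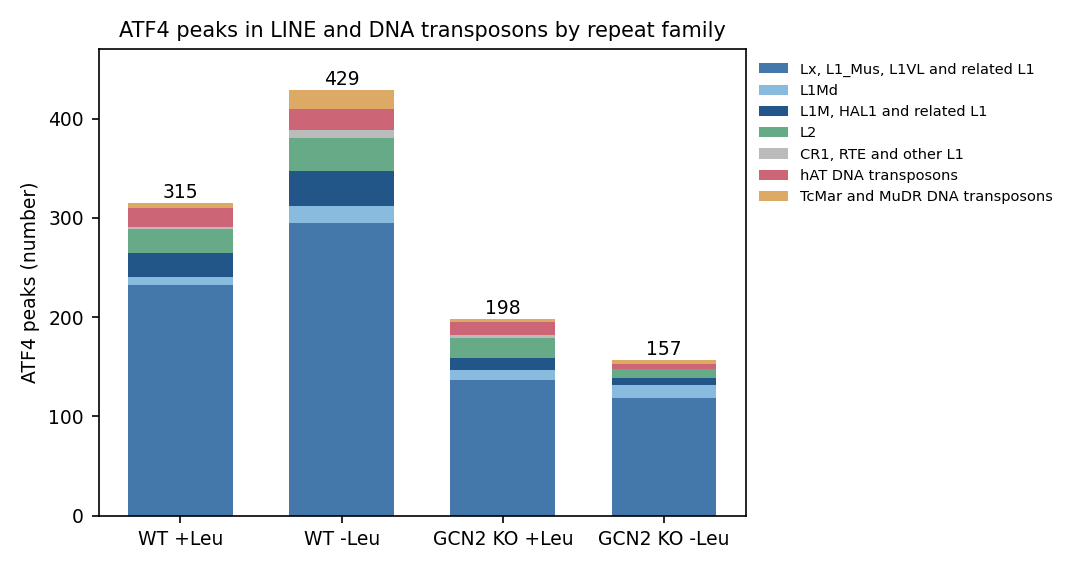
Number of ATF4 peaks (vertical axis) in LINE and DNA transposons in each of the 4 lists (horizontal axis), stacked by repeat family, with the total above each bar and 1 library per bar. L1 elements named Lx, L1_Mus or L1VL fill most of every bar, and the TcMar and MuDR segment is widest in WT -Leu.

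By name, 783 of the 912 L1 peaks over the 4 lists were in rodent-lineage elements, 78 in old L1M or HAL1 elements and 49 in the young L1Md elements. The young share of L1 peaks was 3.38% (1.79 to 6.3) with and 4.89% (3.07 to 7.68) without leucine in WT. In GCN2 KO it was 6.29% (3.45 to 11.2) with and 9.35% (5.55 to 15.3) without. The intervals of neighboring lists in this order overlapped. Members carried 83 LINE subfamily names, of which Lx8 (80 peaks), Lx5 (72), Lx (70), Lx2 (48) and L1VL2 (40) were the most frequent. The 39 DNA subfamily names were led by Tigger7 (14 peaks), RCHARR1 (9), MER20 (6), MER5A (5) and MER5B (5).

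Because short reads cannot always be placed in a repeat, the sequence under each peak was compared with the rest of the reference. Every member peak had at least 76.6% of its 50-base stretches, the length of a read, found once in the reference by exact match, and the median was 100% in each list. The young L1Md peaks did not stand apart, with medians of 99.2% in WT +Leu and 100% in the other lists. No member thus lay in sequence that is mostly repeated exactly elsewhere in the reference.

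Member peaks lay farther from promoters than intron or intergenic peaks outside repeats. Their median distance to the nearest listed transcription start site (TSS) was 74.4 kb with and 70.8 kb without leucine in WT, and 55 kb with and 102 kb without in GCN2 KO. For intron or intergenic peaks with no repeat the same medians were 28, 26.3, 28.2 and 29.7 kb. More of the members were intergenic, at 67.3, 68.5, 72.7 and 76.4% against 44.7, 42.7, 43.7 and 44.4%, and the effect of this was not tested. A long distance was not particular to the members. Medians were 73.4, 54.4, 64.3 and 50.1 kb for repeats other than SINE and LTR. They were 40.8, 40.7, 40.2 and 39.4 kb for LTR peaks, but 26.5, 23, 24.1 and 22.7 kb for SINE peaks. Between 3.50% (WT -Leu) and 6.37% (GCN2 KO -Leu) of members lay within 5 kb of a TSS. DNA transposon peaks were closer to a TSS than LINE peaks in all 4 lists, at 37.9 against 83.6 kb in WT +Leu and 35.8 against 77.8 kb in WT -Leu. No member peak lay within 5 kb of the TSS of any of the 65 genes of the lists of ATF4 targets, tRNA synthetases and amino acid transporters. In the WT -Leu list, 36 of these genes had a peak of any kind in that window. Of the 1173 peaks of that list within 5 kb of any TSS, only 15 were members, so few or none would be expected near the listed genes. The count of 0 is therefore not read as a result about these genes. The single member assigned to such a gene at any distance was a HAL1 peak 34.7 kb downstream of the TSS of Slc38a1, a glutamine transporter, with a score of 30 in WT +Leu.

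Scores are whole numbers from 13 upward whose scale is not stated, and they are not normalized between lists, so they are compared within a list. The median score of the members was 30 in each of the 4 lists, and the medians over all other peaks were 29, 30, 29 and 30. LINE peaks had a median of 30 in each list. DNA transposon peaks had medians of 30 with and 38 without leucine in WT, and of 29.5 and 32 in GCN2 KO. The members therefore sat at the middle of their lists, and what set some apart was the upper end.

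Scores of 100 or more were reached by 1.86% of the whole WT list with leucine and by 9.82% without, and by 0.897% of the whole GCN2 KO list with leucine and 0.487% without. Among the members, 4 of 315 (1.27%, 0.495 to 3.22), 23 of 429 (5.36%, 3.6 to 7.92), 1 of 198 (0.505%, 0.0892 to 2.8) and 1 of 157 (0.637%, 0.113 to 3.52) did so. In WT -Leu the interval of the members ended below the share of the whole list. Within the members, 13 of 389 LINE peaks (3.34%, 1.96 to 5.63) but 10 of 40 DNA transposon peaks (25.0%, 14.2 to 40.2) scored 100 or more there. SINE peaks at 5.60% (3.66 to 8.49) and LTR peaks at 6.24% (4.4 to 8.76) also ended below the share of the whole list, so a low share was not particular to LINE. The 13 LINE peaks comprised 9 L1, 2 L2 and 2 CR1 peaks and no L1Md peak. No LINE peak of either GCN2 KO list reached 100, and their highest scores were 74 (+Leu) and 76 (-Leu).

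**Figure D2:**
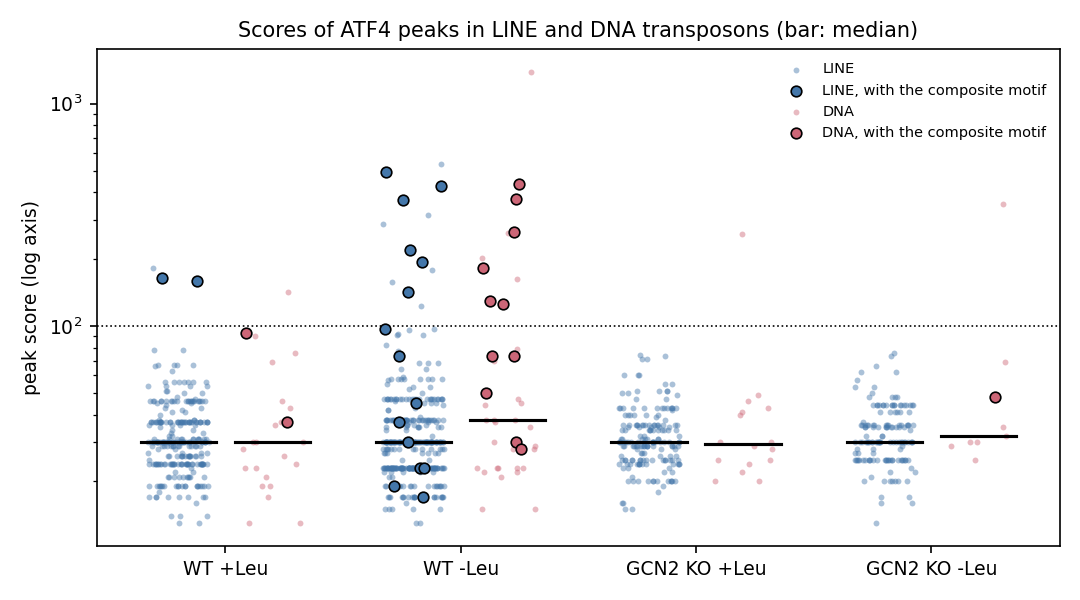
Score of every member peak (log axis) in the 4 lists, LINE left and DNA transposon right within each list, with the median as a bar, a dotted line at 100 and outlined points for peaks with the composite motif within 50 bp of the center. The bodies of the lists coincide near 30, and in WT -Leu 12 of the 23 peaks at 100 or more carry the motif.

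The same 5 sites held the highest member scores in both WT lists. The first is a Tigger7 copy 9.71 kb downstream of the TSS of Tgif1, which codes for a homeodomain repressor of TGF-beta signaling. It scored 143 with and 1391 without leucine in WT, and 259 with and 353 without in GCN2 KO, which placed it at rank 51, 12, 6 and 1 of its lists. It was the only member site present in all 4 lists. The other 4 sites were absent from both GCN2 KO lists. Over all WT peaks, a GCN2 KO partner of the same medium, as defined below, was found for 1.92% with leucine and 1.27% without. The absence is therefore not read as particular to these sites. An L2 copy 15.1 kb upstream of Rere, a transcriptional corepressor gene, scored 182 in WT +Leu and 537 in WT -Leu. An L2a copy upstream of Lsm14a, a gene for a P-body RNA-binding protein, scored 165 and 491 at a distance of 1.43 and 1.44 kb. An L1MD3 copy in intron 3 of Frmd4a, a cell polarity scaffold gene, scored 159 and 427. An RCHARR1 copy 4.83 kb upstream of Eif3a, which codes for a translation initiation factor subunit, scored 93 and 437.

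In the GCN2 KO lists every member below Tgif1 scored under 100, although the next members ranked high in their own lists, from 44 to 46 of 3566 with leucine and from 19 to 33 of 2672 without. In GCN2 KO +Leu the next scores were 74 for an L1VL2 copy near Pclo, 73 for an L2a copy near Zfand3, and 71 each for an L1_Mus1 copy near Ly96 and an L1Md_F2 copy near Cyp3a41a. In GCN2 KO -Leu they were 76 at the same L1Md_F2 copy near Cyp3a41a, 73 for L1_Mus2 near 4930474N05Rik, 69 for MER44B near Osbpl10 and 66 for L1MC2 near Myom2. Members within 5 kb of a TSS were led there by Lx3A near Mnda (51), MER5B in intron 1 of Slc14a1 (49) and Lx3A near Spink6 (43) with leucine, and by L1_Mus3 near Vmn2r9 (48), L2a near Usp2 (48) and L1M4 near Adamtsl5 (41) without leucine. In WT the third place behind Lsm14a and Eif3a in that window was an L2a peak near Pfdn4, a prefoldin subunit gene, with leucine (50) and a MER2 peak near Mir211 without leucine (129).

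The 150 bases around the center of the WT -Leu peak at Tgif1, the strongest of all members, are given on the plus strand, with TGATGNAA in capitals (read on the other strand).
Tgif1 (Tigger7), chr17:70836991-70837140: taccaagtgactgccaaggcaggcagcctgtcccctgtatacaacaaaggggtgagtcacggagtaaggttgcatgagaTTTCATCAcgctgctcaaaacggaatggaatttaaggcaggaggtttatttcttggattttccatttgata
This stretch held TGATGNAA, as TGATGAAA, and the AP-1 core TGANTCA, but not TGATGCAA. The Rere peak, the strongest LINE peak, held none of the motifs searched in the same length around its center. The search left only the sixth base of TGATGCAA free. Read on the other strand, the Rere stretch holds a near match to TGATGCAA that differs only in a base kept fixed. Such near matches were not counted in any list, so the Rere peak is not read as lacking a composite site. Whether ATF4 binds this near match was not tested.
Rere (L2), chr4:150266735-150266884: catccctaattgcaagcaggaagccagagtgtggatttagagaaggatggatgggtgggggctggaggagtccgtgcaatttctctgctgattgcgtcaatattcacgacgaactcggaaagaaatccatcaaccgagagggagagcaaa

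To ask which of these elements held the composite motif where ATF4 was mapped, TGATGCAA was searched on both strands within 50 bp of each center. Over all peaks on assembled chromosomes it was present in 2.71% with and 6.95% without leucine in WT, and in 1.07% with and 1.09% without in GCN2 KO. Among the members it was present in 4 of 315 (1.27%, 0.495 to 3.22), 26 of 429 (6.06%, 4.17 to 8.73), 0 of 198 (0 to 1.9, and 3 counts, the limit that a count of 0 allows, would be 1.52%) and 1 of 157 (0.637%, 0.113 to 3.52). The WT -Leu share of the members was thus near that of the whole list, but the repeat classes differed. In DNA transposons 11 of 40 WT -Leu peaks held it (27.5%, 16.1 to 42.8), against 15 of 389 LINE peaks (3.86%, 2.35 to 6.26) and 321 of 4083 intron or intergenic peaks with no repeat (7.86%, 7.08 to 8.73). The interval for DNA transposons lay above both others and that for LINE lay below the peaks with no repeat. Other repeat classes were low as well, at 1.97% (0.956 to 4) for SINE and 5.20% (3.54 to 7.56) for LTR. In windows 1 kb to either side of the WT -Leu peaks it was found in 0 of 80 for DNA transposons, 4 of 778 for LINE and 17 of 8166 for peaks with no repeat.

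**Figure D3:**
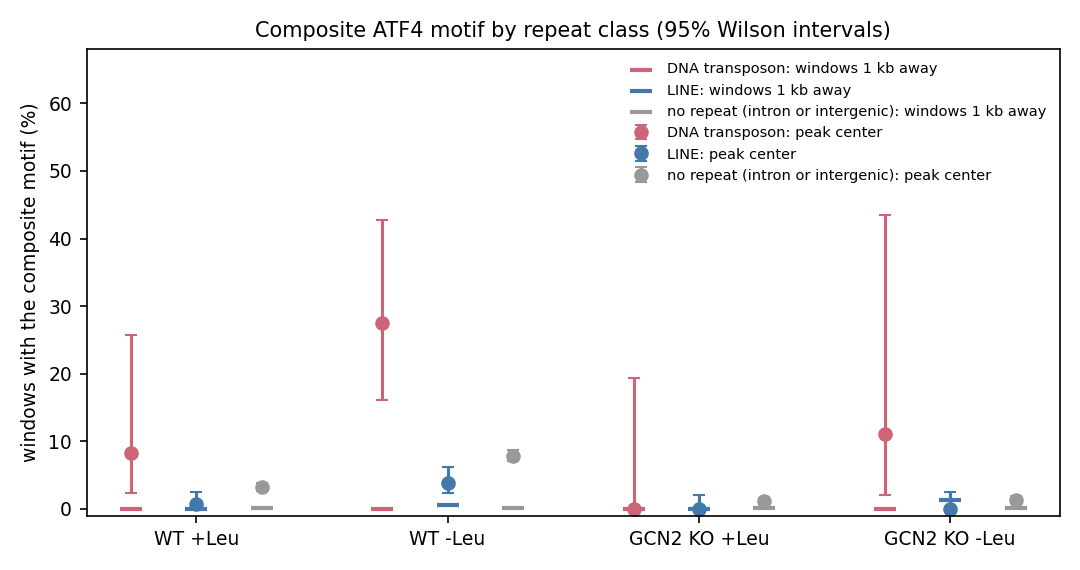
Percent of windows of 50 bp either side with the composite motif (vertical axis) at the peak center (circles, 95% Wilson intervals) and 1 kb away (dashes) for DNA transposon, LINE and repeat-free intron or intergenic peaks in each list. DNA transposons reach 27.5% in WT -Leu against 3.86% for LINE, and windows 1 kb away reach at most 1.35%.

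With the sixth base free, TGATGNAA, which includes TGATGCAA, was present in 17 of 40 DNA transposon peaks in WT -Leu (42.5%, 28.5 to 57.8), in 22 of 389 LINE peaks (5.66%, 3.76 to 8.41) and in 11.0% of all peaks of that list. In TcMar-Tigger it was found in 11 of 18 WT -Leu peaks (61.1%, 38.6 to 79.7), and TGATGCAA itself in 6 of 18. In hAT-Charlie TGATGNAA was found in 6 of 17 and TGATGCAA in 5 of 17. TGATGNAA was found away from the center too, in 25 of 778 windows 1 kb from WT -Leu LINE peaks (3.21%). Whether these windows lay in LINE sequence was not determined. Of the other motifs, the cAMP response element TGACGTCA was found in 2 member peaks over the 4 lists, and TTGCGCAA or ATTGCAAT, sites for C/EBP, in 2. They were rare in all peaks too. TGACGTCA was in 0.0620 and 0.141% of WT peaks with and without leucine, and in 0.0564 and 0.0752% in GCN2 KO. The C/EBP sites were in 0.0207, 0.173, 0.141 and 0.150% in the same order. The member counts are too small to be read against these shares. The AP-1 core TGANTCA was present in 5 of 40 WT -Leu DNA transposon peaks (12.5%, 5.46 to 26.1) and in 7 of 389 LINE peaks (1.80%, 0.874 to 3.67), beside 4.42% of all peaks.

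Motif and score went together in the members. In WT -Leu the 26 members with TGATGCAA had a median score of 85 (17 to 491), and the 403 without it a median of 30 (13 to 1391). Of the WT -Leu members with a score of 100 or more, 12 of 23 held TGATGCAA (52.2%, 33 to 70.8), beside 38.0% (34.3 to 41.9) of all WT -Leu peaks of that score. Between 30 and 99 the shares were 9 of 217 (4.15%) for the members and 5.91% for all peaks. Within 20 bp of the center lay 19 of the 26 motifs, and their median distance from it was 10 bp. The other WT -Leu peaks with the motif were alike, with 284 of 416 within 20 bp and a median of 11.5 bp. Members with the motif and a score of 100 or more but no peak in another list included Psapl1 (Lx5, 369), Zfr (MER20B, 372), Arid5a (MER117, 266), Rfwd2 (Lx7, 220), Scara5 (L3, 195), 3110009F21Rik (Tigger7, 183), Adpgk (Lx8, 142), Mir211 (MER2, 129) and Pparg (Tigger7, 126), all in WT -Leu. Adpgk codes for a glucokinase that uses ADP, Zfr for an RNA-binding zinc finger protein, and Pparg for a nuclear receptor of fat cells.

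The Tigger7 and MER44B copies printed above shared letters beyond the motif. Letters present in at least 5 of the 7 copies numbered 24 of 40, of which 17 lay outside the 7 fixed letters of TGATGNAA. The copy near 3110009F21Rik matched all 24, those near Lonrf2, Pparg, Rbpj and Sh3kbp1 matched 23, that near Tgif1 21 and that near Nos1 17. TGATGNAA with at least 21 of these 24 letters occurred at 19 places in the assembled chromosomes, 6 of which were the copies it was derived from. None of the other 13 lay within 150 bp of a peak center in any list. The 6 places with a peak were all in the WT -Leu list, 3 were in the WT +Leu list and 1, at Tgif1, was in each GCN2 KO list. The letters came from these same peaks, and the limit of 21 equals the number matched at Tgif1. That these 6 places matched the letters and had a peak was thus fixed by how the copies were picked. Their spread over the lists is described only and is not read as a result about the conditions. Of the 9 RCHARR1 peaks, 3 held TGATGCAA within 50 bp of the center, 2 of them at Eif3a and 1 at Rps6kc1. At Mitf the motif lay 80.5 bp from the WT -Leu center and 61.5 bp from the WT +Leu center.

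Recurrence was read as a peak of the other leucine condition whose center lay 300 bp or less away. Such a partner was found for 6.35% of the whole WT list with leucine and 4.85% without, and for 2.75% of the whole GCN2 KO list with leucine and 3.59% without. Among the members it was found, in the same order, for 13 of 315 (4.13%, 2.43 to 6.93), 15 of 429 (3.50%, 2.13 to 5.69), 6 of 198 (3.03%, 1.4 to 6.45) and 6 of 157 (3.82%, 1.76 to 8.09). Each share lay near that of its whole list, with an interval that included it. In WT the classes differed. With leucine, 9 of 291 LINE peaks (3.09%, 1.64 to 5.77) and 4 of 24 DNA transposon peaks (16.7%, 6.68 to 35.9) recurred. Without leucine, 9 of 389 LINE peaks (2.31%, 1.22 to 4.34) and 6 of 40 DNA transposon peaks (interval 7.06 to 29.1) did so. The LINE intervals ended below the share of the whole list, and the DNA transposon intervals began above it. In GCN2 KO the intervals of both classes included it. In WT, recurrence was tied to score: all 4 WT +Leu members with a score of 100 or more recurred in WT -Leu, as did 96.7% of all WT +Leu peaks of that score, against 2 of 135 members with a score under 30. In WT -Leu 10 of 23 members with a score of 100 or more recurred (43.5%, 25.6 to 63.2), beside 30.5% of all such peaks. In GCN2 KO the counts below 100 were few and went either way. With leucine, 4 of 108 members scoring 30 to 99 and 1 of 89 under 30 recurred. Without leucine, 2 of 104 and 3 of 52 did so. Between genotypes, 3 WT members with leucine had a GCN2 KO partner of that medium (0.952%, 0.324 to 2.76), beside 1.92% of the whole list. Without leucine it was 5 members (1.17%, 0.499 to 2.7), beside 1.27% of the whole list.

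Member peaks with a partner formed 29 sites in 2 or more lists, of which 14 were in the WT pair alone and 4 in the GCN2 KO pair alone. Of the 15 sites in both WT lists, 12 scored higher without leucine, with a median -Leu to +Leu score ratio of 2.95. WT +Leu peaks outside the members that had a -Leu partner mostly moved the same way, with 241 of 295 higher and a median ratio of 2.29. Of the 6 sites in both GCN2 KO lists, 3 scored higher without leucine and the median ratio was 0.903, and of the other 92 GCN2 KO +Leu peaks with a partner 42 scored higher, with a median ratio of 1. Since scores are not normalized between lists, these ratios are read only against those of the other peaks of the same pair.

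Among the WT pair, the sites beside the 5 already given included an Lx8 copy in the intron of Mb21d2 (34 and 315), an L1MC3 copy near Zcchc24 (66 and 288), a MER58B copy near Socs3, a cytokine signaling inhibitor (47 and 262), the RCHARR1 copy in intron 1 of an annotated transcript near Mitf, a melanocyte transcription factor gene (69 and 202), and the site near Lonrf2 (46 and 162). At Lonrf2 the WT +Leu center fell in an Lx2A1 element and the WT -Leu center, 113 bp away, in Tigger7. At Socs3 only the WT -Leu peak (262) was listed in MER58B. The WT +Leu peak (47), 39 bp away, was listed as Intergenic and is not a member. Weaker sites were an Lx copy near 4930423M02Rik (19 and 38) and an L1Md_F copy near Cyp3a41a (13 and 38). The 3 sites that scored lower without leucine were the MER44B copy in intron 1 of Sh3kbp1 (90 and 79), an L1Md_F copy near Prb1 (56 and 23) and the site near Scn10a (37 and 17). At Scn10a only the WT -Leu peak (17) was listed in L2a. The WT +Leu peak (37), 258 bp away, was listed in a MIRc SINE and is not a member. In 10 of the 15 WT sites at least 1 score reached 100, in 7 a member peak held TGATGNAA within 50 bp of its center, and 6 were in DNA transposons. At Zcchc24 and Mitf the member peaks held TGATGNAA farther from the center. In the GCN2 KO pair only Tgif1 reached 100, and the other 5 sites, all L1, scored 17 to 76.

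**Figure D4:**
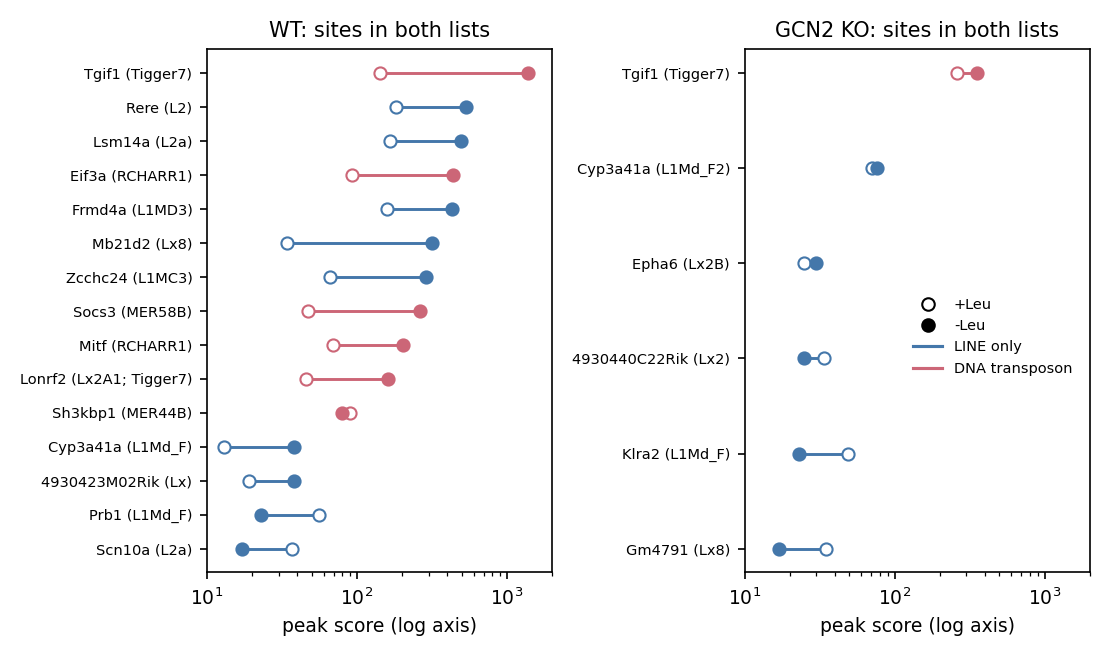
Peak scores (log axis) with leucine (open circles) and without (filled circles) at the 15 member sites in both WT lists (left) and the 6 in both GCN2 KO lists (right), each row a site named by its nearest gene and repeat subfamily. The 10 highest WT sites all move to the right without leucine, whereas the GCN2 KO sites move either way over short distances. At Socs3 and Scn10a the WT +Leu peak is not a member.

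The young L1Md elements formed a small recurrent group without the composite motif. Recurrence above the share of all peaks was not particular to them, with 7 of 28 TcMar-Tigger and 5 of 47 hAT-Charlie peaks over the 4 lists. Over the 4 lists 11 of 49 L1Md peaks (22.4%) had a partner in some other list, beside 17 of 783 rodent-lineage L1 peaks (2.17%), 7 of 78 old L1 peaks (8.97%) and 6.37% of all peaks. The 11 L1Md peaks were 5 sites, each counted once for every list that holds it. All 5 were L1Md_F or L1Md_F2 copies, and whether these copies are active was not examined. An L1Md_F2 copy 54 kb downstream of the TSS of Cyp3a41a, a cytochrome P450 gene, was present in 3 lists, with scores of 71 with and 76 without leucine in GCN2 KO and 45 in WT -Leu. A nearby L1Md_F copy assigned to the same gene was in both WT lists (13 with and 38 without leucine). L1Md_F copies near Prb1 (56 with and 23 without leucine in WT), Klra2 (49 with and 23 without leucine in GCN2 KO) and Mir7094-2 (23 in WT -Leu and 28 in GCN2 KO -Leu) completed the group. None of the 49 L1Md peaks held TGATGCAA near the center and none scored 100 or more. The 150 bases around the center of the GCN2 KO -Leu peak at the first of these sites, shown as the contrast to the motif-bearing copies, held none of the motifs searched.
Cyp3a41a (L1Md_F2), chr5:145666053-145666202: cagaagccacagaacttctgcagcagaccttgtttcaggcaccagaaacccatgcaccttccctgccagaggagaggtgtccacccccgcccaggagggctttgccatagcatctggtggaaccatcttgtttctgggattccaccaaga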

How the data were processed

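Chromatin of each condition was sequenced as single 50-bp reads. Per the file headers and the study's methods, the authors trimmed the reads, aligned them with BWA 0.7.12 to mm10, called peaks over input of that genotype with MACS2 2.1.0 (FDR 0.05), kept 150 bp either side of the summit, and annotated peaks with HOMER 4.7. The -Leu lists were called against the +Leu input. The 2 input libraries were not analysed here. The deposited peak score is a whole number on a scale that the sources used here do not give. GC and CpG content are deposited as fractions. The repeat, TSS distance and gene of each peak are those of the authors' annotation, and a nearest gene is not shown to be a target. Peaks in repeats depend on reads that could be placed, which these lists cannot show.

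Sequence was read from RefSeq GRCm38.p6, because its GC content equaled the listed fraction within 1e-05 for all 4839, 6362, 3549 and 2658 peaks on assembled chromosomes. All members lay on these. Motifs were searched on both strands within 50 bp of the center, and in windows 1 kb away. Uniqueness is the share of a peak's 50-base stretches that occur once in the reference by exact match. Python 3.11.15, pandas 2.3.3, scipy 1.17.1 and pysam 0.24.0 were used, and the functions for motifs, partners and intervals were tested on simulated data. Ratio intervals are Wilson intervals of the share of peaks without leucine.

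With 1 pooled library a condition, no test between conditions was run. Members of a list share a library and are not replicates. The members, gene lists and motifs were chosen with earlier results of these data known. Sites were named as the 5 highest members of each list, sites in 3 or more lists, the 12 highest members with TGATGCAA and a score of 100 or more, the 3 highest members of each list within 5 kb of a TSS, and any member within 5 kb of the TSS of a listed gene. Other sites in the text were chosen after their values were seen.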

Additional observations from a re-analysis of the deposited data

Results flagged for a closer look

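The number of peaks moved in opposite directions with leucine deprivation in the 2 genotypes, a difference that was not tested because each condition had 1 library. The -Leu to +Leu ratio of LINE and DNA transposon peaks was 1.36 in WT and 0.793 in GCN2 KO. For LINE peaks alone it was 1.34 and 0.813, and for DNA transposon peaks alone 1.67 and 0.562. All other peaks of the same lists moved the same way, with 1.31 and 0.747.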

How the results depend on the processing

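Of 58 alternative values for 16 results, 47 stayed within the counting interval of the main value. The WT ratio of -Leu to +Leu member peaks turned from 1.36 to 0.8 when each list was shortened to its 2672 strongest peaks, an alternative that makes the list totals equal, and was 1.33 at a score of 30 or more. Counted for DNA transposons alone the ratio was 1.67 in WT and 0.562 in GCN2 KO. At a score of 30 or more the member share moved to 7.41% in WT with leucine, and to 6.45% with and 7.54% without leucine in GCN2 KO. It moved to 7.30% in WT +Leu and 5.84% in WT -Leu among the strongest peaks, where the cause was not tested. The WT -Leu motif share moved to 9.09% with a free sixth base and to 8.75% at a score of 30 or more, and the GCN2 KO +Leu share from 0 to 2.02% with a window of 150 bp either side. Restricting the lists to peaks with at least 50% unique 50-base stretches, an alternative chosen after seeing the data, took away no member. The recurrence shares of the +Leu lists and the median scores stayed within their intervals, and the recurrence shares of the -Leu lists were not recomputed. No paired analysis was possible because each condition has 1 library and no result comes from a test. Leaving out a replicate could not be done for the same reason. Depth is not in the lists, and the number of peaks limits the precision of each share.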
